A study of Mus musculus with 22 samples.

Results

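A set of 35 genes of the lysosome was followed in whole-brain RNA of D2 and B6 mice. They encode the enzymes that degrade proteins, sugar chains and lipids inside the organelle, proteins of its membrane, and a few soluble helper proteins. The members were picked by name for their function, and each is listed under 1 platform symbol. All 35 were measured, of 16016 genes tested on the array. The D2 group held 12 naive adult male mice of the inbred strain DBA/2J (D2), and the B6 group 10 naive adult male mice of the inbred strain C57BL/6J (B6). Each array held RNA of 1 mouse, hybridised to a Mouse Exon 1.0 ST array from Affymetrix, whose probesets (groups of probes) lie along the exons of each gene. No mouse was treated.

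Lysosomes are acidic compartments in which cells break down material from outside and worn parts of their own. Most of the hydrolases receive a mannose 6-phosphate tag in the Golgi apparatus, which receptors recognise and carry to the lysosome. In people, inherited loss of single hydrolases leads to storage disorders, many of which affect the brain, and in the brain all major cell types contain lysosomes, with high activity in microglia.

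The gene value is the median, on each array, of the log2 signals of the gene's kept probesets, those whose 22-array mean reached 1.44, the middle of all probeset means. Of 641 member probesets with values, 594 passed this filter and 47 did not, and 6 to 34 remained for each member. Just inside the filter lay a probeset of Arsa (1.45) and one of Ctsc (1.497), and just outside lay one of Sgsh and one of Arsb (both 1.41). Signals of different genes depend on their probes, so levels are not compared between genes. A sequence difference between the strains under a probe can also change its signal, and gene values are medians of such signals. No probe sequences or positions were used here. For every gene, probeset and exon usage difference below, the part of such variants was therefore not tested. The array names carry a letter whose meaning the labels do not explain: B on 2 D2 and 2 B6 arrays, A on 10 D2 and 8 B6 arrays. D2 replicates 13, 14 and 19 had been set apart in earlier results of these data, so values without them are given beside each member's gene or exon usage call that was lost without them. The tissue is whole brain by the sample labels. The pan-neuronal marker Snap25 stood at 10.01 in D2 and 10.12 in B6, and the liver gene Alb at 2.73 in D2 and 2.55 in B6. Of 3 measured liver genes 1 fell, Apoa2, at 2.89 in D2 and 4.12 in B6 (-1.24).

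Of the 35 genes, 6 were lower in D2 and none was higher, at an adjusted p under 0.05 (limma, Benjamini-Hochberg over all genes). These were Man2b1, Idua, Manba, Glb1, Ctsk and Grn. They made up 17.1% of the members, against 10.8% of all genes called (8.26% lower and 2.57% higher in D2). At an unadjusted p under 0.05 stood 10 of the 35 (28.6%), against 25.3% of all genes. The strains' values did not overlap for 0 of the 35 members, against 1.18% of all genes. The difference D2 minus B6 was below 0 for 29 members and above 0 for 6, against 61.9% of all genes below 0. After centring 20 members lay below 0 (57.1%, against 39.7% of all genes). With each array's median of all probesets as a covariate 16 did (45.7%, against 44.8%). That array median ranged from 1.45 to 1.51 in D2 and from 1.41 to 1.47 in B6. The median of the difference D2 minus B6 was -0.15 over the members and -0.053 over all genes tested (log2). With the array-median covariate it was 0.046 and 0.025. The direction of calls over all genes moved with the scaling: 76.3% of calls were lower in D2 as deposited, and 42.5% after every array was centred by its gene median, where 4 members were lower and 0 higher (11.4%, against 11.1% of all genes called). The share of members called was thus close to the background after centring.

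**Figure D1:**
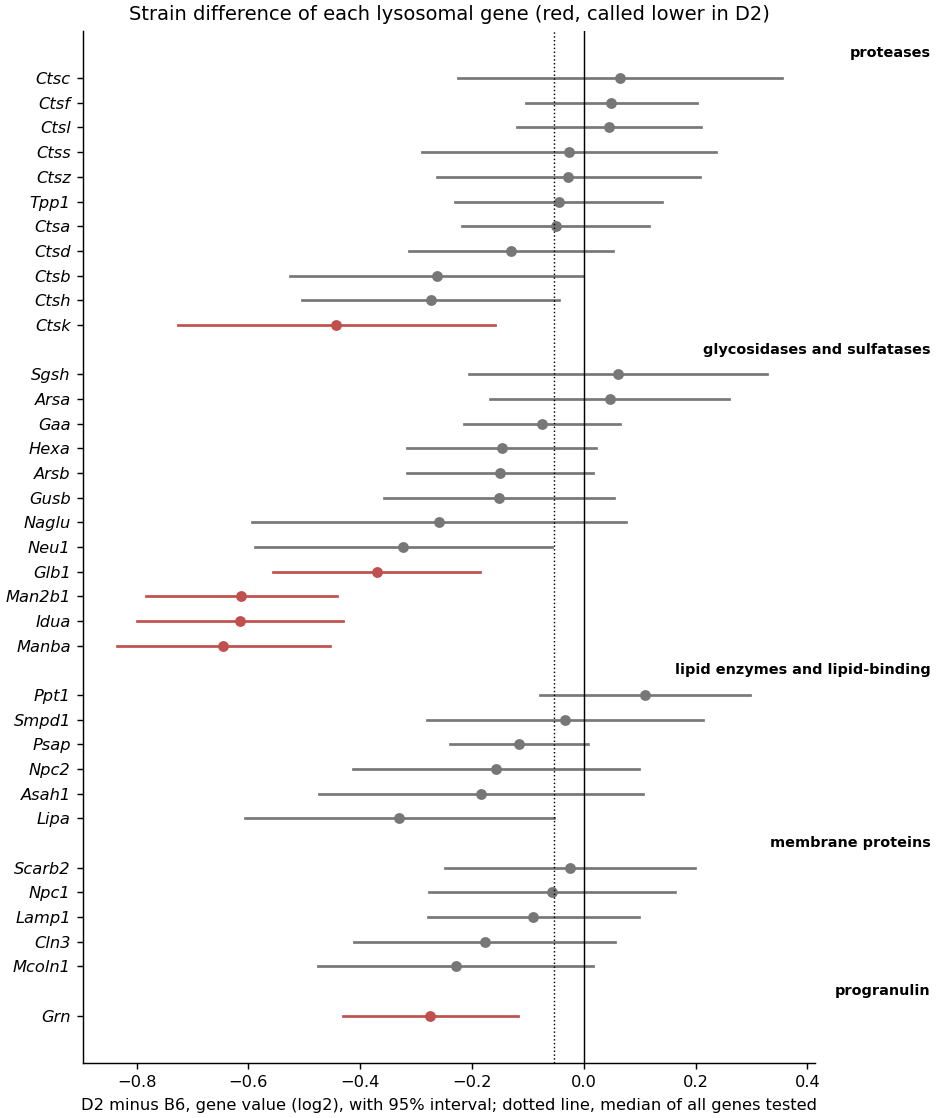
Difference D2 minus B6 of the gene value (log2) for each of the 35 members, grouped by role, with 95% intervals from limma. The 6 genes called lower in D2 are red and reach from -0.65 (Manba) to -0.27 (Grn), and the dotted line is the median of all genes tested (-0.053).

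The largest differences among the members were in enzymes that cut sugar chains, Manba, Idua and Man2b1. Of 12 member glycosidases and sulfatases, 4 fell in D2 and 8 were not called, with a median difference of -0.21. Over all genes 8.26% were called lower. Measured glycosidase and sulfatase genes outside the members were not called: Fuca2 (0.27), Hyal2 (0.27), Gla (0.14), Galns (0.023), Ids (-0.015), Fuca1 (-0.13) and Galc (-0.14). Man2b1 encodes the lysosomal alpha-mannosidase, which trims mannose from N-linked glycans, and its human deficiency is alpha-mannosidosis. Its gene value had a lowest of 4.64, a median of 4.82 and a highest of 5.26 in D2 mice, against 5.17, 5.51 and 5.63 in B6 mice. Of the 12 D2 mice, 11 lay below every B6 mouse, so the groups overlapped by a single D2 mouse. The mean was 4.86 ± 0.19 in D2 (SD, n = 12) and 5.48 ± 0.17 in B6 (SD, n = 10), a difference of -0.61 ± 0.083 (SE; limma adjusted p = 7.9e-06), or 0.654-fold.

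Manba encodes beta-mannosidase, which removes the remaining beta-linked mannose at the core of the same glycans. Its values in D2 mice had a lowest of 3.18, a median of 3.64 and a highest of 3.80, against 3.73, 4.27 and 4.58 in B6 mice. Of the 12 D2 mice, 10 lay below every B6 mouse. The mean was 3.58 ± 0.17 in D2 (SD, n = 12) and 4.22 ± 0.25 in B6 (SD, n = 10), a difference of -0.65 ± 0.093 (SE; limma adjusted p = 1.8e-05). With each array's median as a covariate the difference was -0.39 and the call was lost (adjusted p = 0.0717).

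Idua encodes alpha-L-iduronidase, which works on heparan and dermatan sulfate and is deficient in Hurler syndrome. In D2 mice its values had a lowest of 4.15, a median of 4.46 and a highest of 4.57, against 4.56, 5.07 and 5.39 in B6 mice. The highest D2 mouse and the lowest B6 mouse stood at almost the same value, and 10 of 12 D2 mice lay below every B6 mouse. The mean was 4.41 ± 0.14 in D2 (SD, n = 12) and 5.03 ± 0.25 in B6 (SD, n = 10), a difference of -0.62 ± 0.089 (SE; limma adjusted p = 2.2e-05).

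Glb1, the beta-galactosidase that takes galactose from GM1 ganglioside and from glycans, fell less. Its values ranged from 3.96 over a median of 4.36 to 4.68 in D2 mice, and from 4.43 over 4.70 to 4.99 in B6 mice. Of the D2 mice 7 lay below every B6 mouse, and all 12 lay below the B6 median. The mean was 4.36 ± 0.22 in D2 (SD, n = 12) and 4.73 ± 0.18 in B6 (SD, n = 10), a difference of -0.37 ± 0.090 (SE; limma adjusted p = 0.0073). The call of Glb1 was lost with this covariate (-0.20, adjusted p = 0.487) or without the filter (-0.26, adjusted p = 0.104).

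**Figure D2:**
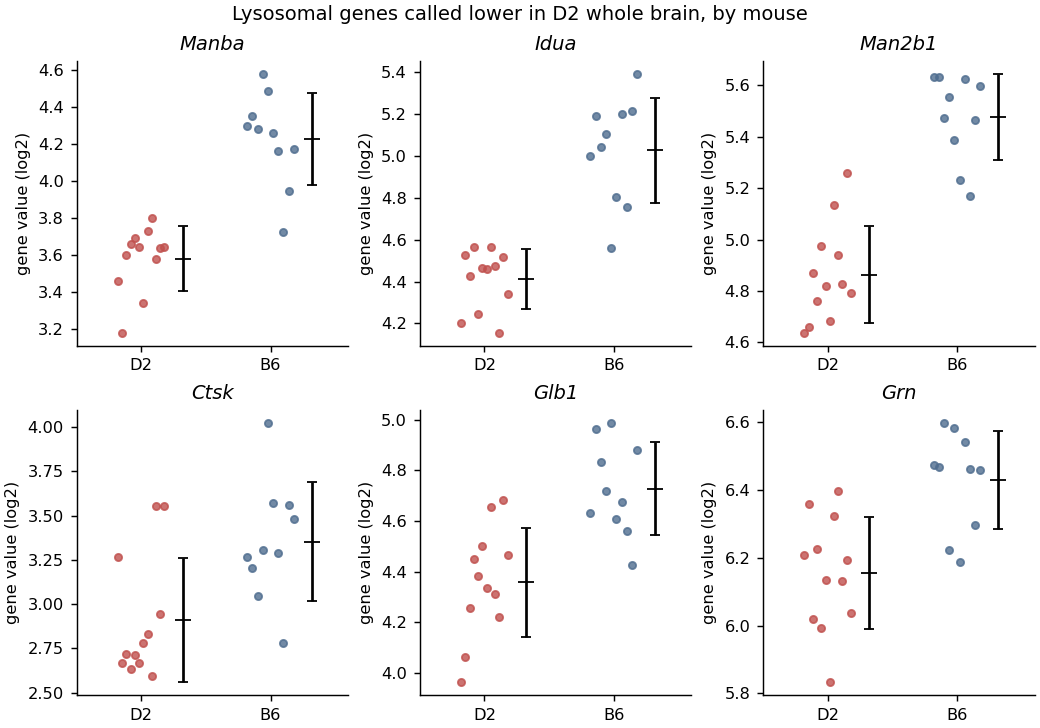
Gene value (log2) of the 6 genes called lower in D2, one point per mouse, with the mean and SD beside the points, for 12 D2 and 10 B6 mice. In Man2b1, 11 of 12 D2 mice lie below every B6 mouse, while in Ctsk 7 do.

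The other 8 genes of this group were not called. Neu1, the sialidase, differed by -0.32 ± 0.13 (SE; limma adjusted p = 0.112), and Naglu, which acts on heparan sulfate, by -0.26 ± 0.16. The beta-hexosaminidase subunit gene Hexa (-0.15), the arylsulfatase gene Arsb (-0.15), the beta-glucuronidase gene Gusb (-0.15) and the acid alpha-glucosidase gene Gaa (-0.075) lay between these and 0. Arsa (0.046), whose product removes sulfate from myelin sulfatide, and the sulfamidase gene Sgsh (0.061) lay above 0. After Manba, Idua and Man2b1, the next largest difference in the group was that of Glb1.

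Of 11 lysosomal proteases and their protective protein, Ctsk fell and 10 were not called, with a median difference of -0.045. Ctsk encodes cathepsin K, known from bone, where osteoclasts use it to digest collagen. Only 6 of its 11 probesets passed the filter. Its values had a lowest of 2.59, a median of 2.75 and a highest of 3.56 in D2 mice, against 2.78, 3.30 and 4.02 in B6 mice. Most D2 mice were low, but the ranges overlapped widely. The mean was 2.91 ± 0.35 in D2 (SD, n = 12) and 3.35 ± 0.34 in B6 (SD, n = 10), a difference of -0.44 ± 0.14 (SE; limma adjusted p = 0.0387). This call was lost with each array centred (-0.34, adjusted p = 0.134), with the array-median covariate (-0.42, adjusted p = 0.34), without the filter (-0.29, adjusted p = 0.332), and without D2 replicates 13, 14 and 19 together (-0.44, adjusted p = 0.0768). It was also lost when any 1 of 13 single arrays was left out (adjusted p from 0.0517 to 0.0825), namely B6 replicates 4, 5, 6, 11 and 12 and D2 replicates 14, 15, 16, 17, 18, 19, 20 and 21.

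The other members of this group were not called. Ctsd, the main aspartic protease of the lysosome, differed by -0.13 ± 0.089 (SE; limma adjusted p = 0.374). Ctsb differed by -0.26 ± 0.13 (adjusted p = 0.195), and with the file letter as block it was called at -0.28 ± 0.083 (adjusted p = 0.0236). Ctsl, a cysteine protease, differed by 0.045 and Ctss, the cathepsin of microglia and other antigen-presenting cells, by -0.026. Ctsh differed by -0.27 ± 0.11 (adjusted p = 0.118). Ctsz (-0.028), Ctsf (0.049), Ctsc (0.064), the tripeptidyl peptidase gene Tpp1 (-0.045) and Ctsa (-0.050), whose product protects beta-galactosidase and sialidase, were also not called.

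None of the 6 genes for lipid hydrolases and soluble lipid-handling proteins was called, with a median difference of -0.14. Lipa, the acid lipase for cholesteryl esters, differed by -0.33 ± 0.13 (SE; limma adjusted p = 0.12), the acid ceramidase gene Asah1 by -0.18, the sterol-binding protein gene Npc2 by -0.16 and the acid sphingomyelinase gene Smpd1 by -0.034. Psap, the precursor of the saposins that activate sphingolipid hydrolases, had 10.19, 10.43 and 10.50 as lowest, median and highest in D2 mice, against 10.38, 10.54 and 10.63 in B6 mice. Its difference was -0.12 ± 0.060 (adjusted p = 0.229). Within strains it varied less than any other member, with an SD of 0.095. Ppt1, the palmitoyl-protein thioesterase lost in infantile neuronal ceroid lipofuscinosis, had the highest difference of all members, 0.11 ± 0.092, and was not called (adjusted p = 0.48). With the filter at the 75th percentile it was called higher in D2, at 0.30 (adjusted p = 0.0127). With the mean of kept probesets as gene value Npc2 was called lower, at -0.18 ± 0.061 (adjusted p = 0.0449).

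The 5 membrane proteins were not called, and all 5 differences lay below 0, against 61.9% of all genes. Mcoln1, a lysosomal calcium channel, differed by -0.23 ± 0.12 (SE; limma adjusted p = 0.233), Cln3, mutated in juvenile neuronal ceroid lipofuscinosis, by -0.18, Lamp1, an abundant glycoprotein of the membrane, by -0.091, the cholesterol exporter gene Npc1 by -0.057 and the glucocerebrosidase receptor gene Scarb2 by -0.025. With the array-median covariate Lamp1 was at 0.20, and with the filter at the 75th percentile Mcoln1 was at 0.059, neither called. Of 11 alternatives, Npc1 changed sign in 4, Scarb2 and Lamp1 in 3 each, Mcoln1 in 1 and Cln3 in 0.

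Grn encodes progranulin, a secreted and lysosomal glycoprotein whose shortage causes frontotemporal dementia in people. Its values had a lowest of 5.83, a median of 6.16 and a highest of 6.40 in D2 mice, against 6.19, 6.46 and 6.60 in B6 mice. All 12 D2 mice lay below the B6 median, and 6 lay below every B6 mouse. The mean was 6.15 ± 0.17 in D2 (SD, n = 12) and 6.43 ± 0.14 in B6 (SD, n = 10), a difference of -0.27 ± 0.076 (SE; limma adjusted p = 0.0192). The call of Grn was lost with each array centred (-0.18, adjusted p = 0.11) and with the array-median covariate (-0.20, adjusted p = 0.394).

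Values by mouse of members at the upper end of the differences show how far the strains overlapped. Ppt1 had gene values of 6.74, 7.32 and 7.59 as lowest, median and highest in D2 mice, against 6.97, 7.13 and 7.41 in B6 mice. Its mean was 7.29 ± 0.24 in D2 and 7.18 ± 0.16 in B6 (SD, n = 12 and 10). The dipeptidyl peptidase gene Ctsc, one of the members with the widest spread within strains, had 2.84, 3.37 and 3.86 as lowest, median and highest in D2 mice, against 2.62, 3.37 and 3.96 in B6 mice. Sgsh had 3.34, 3.99 and 4.34 as lowest, median and highest in D2 mice, against 3.05, 3.95 and 4.23 in B6 mice. In all 3 genes the ranges of the strains overlapped over most of their width. Among genes with an exon usage call but no gene call, Ctsl averaged 7.21 ± 0.17 in D2 and 7.16 ± 0.16 in B6, Gaa 7.86 ± 0.11 in D2 and 7.93 ± 0.14 in B6 and Arsb 6.30 ± 0.16 in D2 and 6.45 ± 0.19 in B6 (SD, n = 12 and 10). Ctsd had 8.63, 8.93 and 9.31 as lowest, median and highest in D2 mice, against 8.81, 9.08 and 9.33 in B6 mice, and its D2 mice reached both below and above the B6 median.

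For the 29 genes not called, differences lay between -0.33 and 0.11, and their 95% intervals reached from -0.61 to 0.35 at the widest. A missed threshold in these genes does not show that the strains were alike. All 6 called genes were lower in D2 on the letter A arrays alone, and each was called there, with differences of -0.63 for Man2b1, -0.60 for Manba, -0.65 for Idua, -0.30 for Glb1, -0.43 for Ctsk and -0.29 for Grn. On the 2 D2 and 2 B6 arrays with letter B the differences were -0.58, -0.86, -0.50, -0.71, -0.39 and -0.22 in the same order, and none was called (limma; 7 of the 35 members had an unadjusted p under 0.05).

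The mean over the 35 members on each array ranged from 5.65 to 6.21 in D2 mice with a median of 5.94, and from 5.90 to 6.23 in B6 mice with a median of 6.13. The lowest of all were D2 replicate 13 (5.65), which carries letter B, and D2 replicate 19 (5.71). Across the same arrays the median of all genes ranged from 4.40 to 4.73 in D2 and from 4.52 to 4.80 in B6. Within strains Naglu varied most among the members, with an SD of 0.41.

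Markers of several cell types also differed between the strains, beside 8.26% of all genes called lower and 2.57% called higher in D2. Of 13 microglia and macrophage markers 4 fell in D2 and 0 rose. C1qb fell most (-0.90), while C1qa (-0.14) and C1qc (-0.25) were not called. The mean of the list ranged from 3.72 to 4.20 in D2 and from 3.93 to 4.40 in B6. Also not called were Aif1 (0.073), Trem2 (-0.021), Cx3cr1 (0.0086), P2ry12 (-0.032) and Csf1r (-0.17). Of 7 astrocyte markers 3 fell and 1 rose (list mean 6.64 to 6.85 in D2, 6.80 to 6.99 in B6), and of 6 oligodendrocyte markers 2 fell (7.38 to 8.04 in D2, 7.82 to 8.09 in B6). Of 6 pan-neuronal markers none was called (limma; 1 had an unadjusted p under 0.05; 8.26 to 8.85 in D2, 8.52 to 8.88 in B6). Of 5 endothelial markers 2 fell, and of 6 markers of ependyma and choroid plexus 3 fell (list mean 4.75 to 5.178 in D2, 5.181 to 5.57 in B6). Of 3 red blood cell markers 2 fell, and the strains' list means did not overlap (3.24 to 4.67 in D2, 5.21 to 5.78 in B6). Among them Hbb-b1 differed by -4.12 (6.04 in D2, 10.16 in B6), Alas2 by -0.90 with overlapping ranges, and Slc4a1, not called, by 0.013. In whole-brain RNA, fewer cells of a type and less RNA per cell cannot be told apart. The part of cell composition in the lysosomal differences was not tested.

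Single probesets showed how evenly a difference ran along each gene. Of the 594 kept probesets of the members, 62 differed between the strains (10.4%), 56 lower and 6 higher in D2, against 4.07% of all probesets of genes tested (2.82% lower, 1.26% higher) and 3.91% of all kept probesets on the array. Most were in the 3 enzymes with the largest gene differences: Man2b1, Manba and Idua held 45 of them among 80 probesets, and the other 32 members 17 among 514 (3.31%), a grouping made after the values were seen.

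All 34 probesets of Man2b1 had differences below 0, 21 were called lower, and in 5 the strains did not overlap. The share of all probesets without overlap was not counted, so these 5 have no background. The middle of the distribution, from its 25th to its 75th percentile, ran from -0.80 to -0.51. Manba had 23 of 24 probesets below 0 and 13 called lower, with a corresponding range of -0.86 to -0.49. Idua was divided: 11 of its 22 probesets were called lower, and 6 lay above 0, none of them called.

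Glb1 had 22 of 26 probesets below 0, of which 5 were called lower, and Grn 14 of 16, of which 1 was called. In Ctsk 5 of 6 lay below 0, and 1 was called, at -1.01. Hexa and Asah1 had 1 probeset each called lower, at -0.45 and -0.65. The 6 probesets called higher in D2 were 1 of Arsb (0.63), 1 of Ctsl (0.93), 2 of Gaa (0.65 and 0.42) and 2 of Ppt1 (0.56 and 0.99), and Ppt1 also had 2 called lower (-0.58 and -0.40). At least 1 probeset was called by its level in 34.3% of members, against 25.7% of all genes, without adjustment for the number of kept probesets per gene. In 23 of the 35 members none was called by its level or by exon usage.

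**Figure D3:**
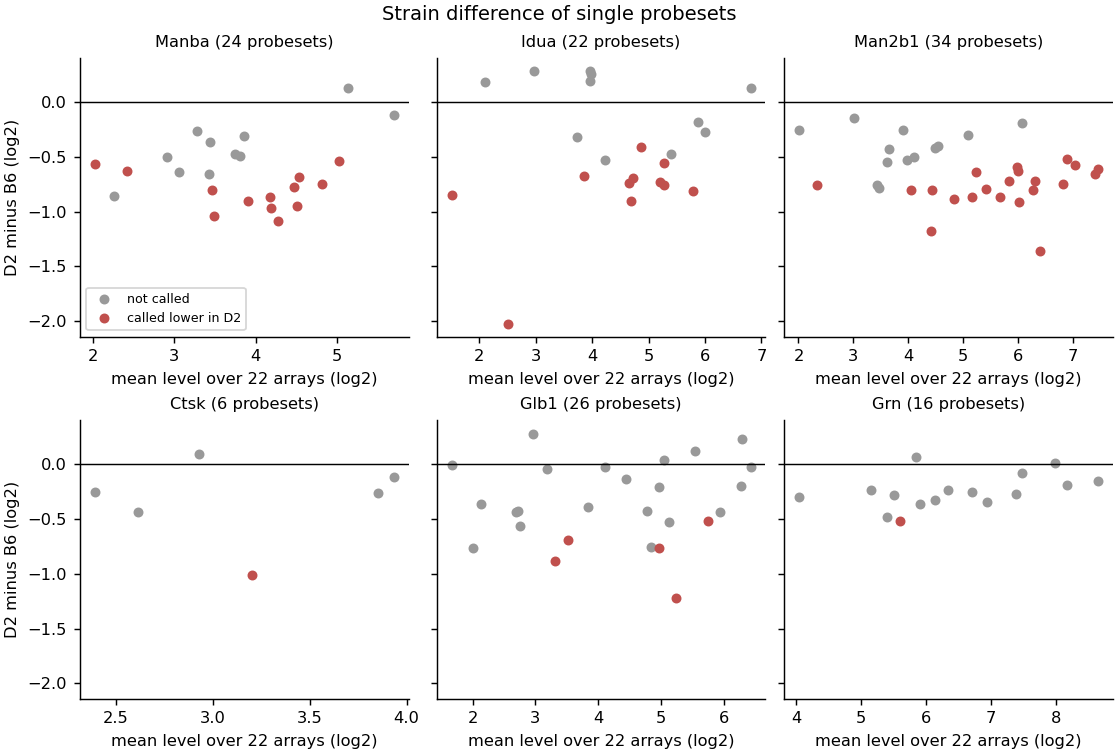
Difference D2 minus B6 (log2) of each kept probeset against its mean level over the 22 arrays, for the 6 genes called lower in D2. All 34 probesets of Man2b1 lie below 0, while 6 of 22 of Idua lie above 0.

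The series compares the strains for alternative splicing, so the use of single exons was tested too. The measure was the splicing index, a probeset's log2 level less the gene value of that array. Calls were made at an adjusted p under 0.05 where the index also differed by 0.5 or more. By this rule 11 member probesets of 8 genes were called, 4 with a lower and 7 with a higher index in D2. That is 1.85% of member probesets against 1.66% of all tested (0.77% lower, 0.894% higher), and 22.9% of members against 13.9% of all genes. Genes with more kept probesets have more chances of a call. The 35 members held 594 tested probesets and all 16016 genes 236114, and the shares of genes were not adjusted for this. Without D2 replicates 13, 14 and 19 the count was 7, of which 4 were among the 11 (Glb1 5403700, Man2b1 5349630, Ppt1 5089639 and Idua 4697735) and 3 were not. With the array-median covariate it was 2, of which 1 was among the 11 (Glb1 5403700).

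The largest was in Idua. This probeset (5495804 in the platform's numbering) had a lowest of 0.16, a median of 1.47 and a highest of 2.81 in D2 mice, against 2.50, 3.79 and 4.67 in B6 mice. The D2 median lay close to the filter level, and the ranges overlapped only at their edges. Its index differed by -1.41 ± 0.32 (SE; limma adjusted p = 0.0151) and its own level by -2.02 ± 0.33 (adjusted p = 0.00021). The index call was lost without D2 replicates 13, 14 and 19 (-1.20, adjusted p = 0.0785) and with the array-median covariate (-1.26, adjusted p = 0.241). In Glb1, probeset 5403700 had 4.19, 4.68 and 5.22 as lowest, median and highest in D2 mice, against 5.48, 5.94 and 6.36 in B6 mice, so the strains did not overlap. Its level differed by -1.22 ± 0.13 (SE; limma adjusted p = 4.9e-07) and its index by -0.85 ± 0.14 (adjusted p = 0.00099). On the letter A arrays alone the index differed by -1.01 (adjusted p = 0.00035). On the few letter B arrays alone it differed by -0.14 ± 0.29 and was not called (adjusted p = 0.925).

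In Man2b1, probeset 5349630 was lower than the gene as a whole: it had 4.80, 6.03 and 6.28 in D2 mice, against 6.49, 7.24 and 7.57 in B6 mice, with no overlap, and an index difference of -0.75 ± 0.15 (SE; limma adjusted p = 0.0064). Ppt1 had no gene call, but its probeset 5089639 had 3.49, 4.76 and 5.24 in D2 mice, against 4.86, 5.26 and 5.67 in B6 mice, and an index difference of -0.69 ± 0.13 (adjusted p = 0.0023). The strains overlapped in Ppt1. The probesets without overlap, of Glb1 and Man2b1, were picked by their strain call, and no background share was counted for them.

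A higher index with a higher level was called in 3 genes that were not called at gene level. In Gaa, probeset 5017588 averaged 5.03 ± 0.36 in D2 (SD, n = 12) and 4.39 ± 0.47 in B6 (SD, n = 10), an index difference of 0.72 (limma adjusted p = 0.0127). In Arsb, probeset 5150358 averaged 4.17 ± 0.50 in D2 and 3.53 ± 0.31 in B6, an index difference of 0.78 (adjusted p = 0.0161). In Ctsl, probeset 5433222 averaged 4.51 ± 0.61 in D2 and 3.57 ± 0.60 in B6, an index difference of 0.89 (adjusted p = 0.047). In all 3 the strains overlapped. Without D2 replicates 13, 14 and 19 these index calls were lost, at 0.56 for Gaa (adjusted p = 0.0715), 0.69 for Arsb (adjusted p = 0.0615) and 0.85 for Ctsl (adjusted p = 0.123). In Gaa and Arsb the mean level of these probesets was 3.15 and 2.49 below their gene's value, and in Ctsl 3.10 below.

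The other 4 calls had a higher index without a called change of level. In Idua 3 probesets differed in level by 0.28, 0.28 and 0.18 while the gene fell by 0.62, which gave index differences of 0.90, 0.90 and 0.80. One of Manba differed in level by -0.12 while the gene fell by 0.65, an index difference of 0.52. Without D2 replicates 13, 14 and 19 the Idua probesets 4471184 (0.78, adjusted p = 0.0664) and 5359964 (0.79, adjusted p = 0.106) and that of Manba (0.41, adjusted p = 0.151) were not called. By construction the index difference is the level difference minus the gene difference, so a fall of the gene value raises it. In the 3 Idua probesets the rise in level, not called, added to it, while in that of Manba the fall in level reduced it. Mean levels over all arrays were 3.96, 2.98 and 2.10 for Idua probesets 4471184, 4697735 and 5359964, and 5.70 for that of Manba. Whether probesets of low level follow their gene was not tested. Slc26a1, a sulfate transporter gene, and Dgkq both overlap Idua in the RefSeq gene table, and neither was called. The gene value of Slc26a1 differed by 0.31 ± 0.11 (SE; limma adjusted p = 0.0689). That of Dgkq differed by 0.049 ± 0.089 (adjusted p = 0.771). Whether probesets listed under Idua also read Slc26a1 or Dgkq was not tested.

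**Figure D4:**
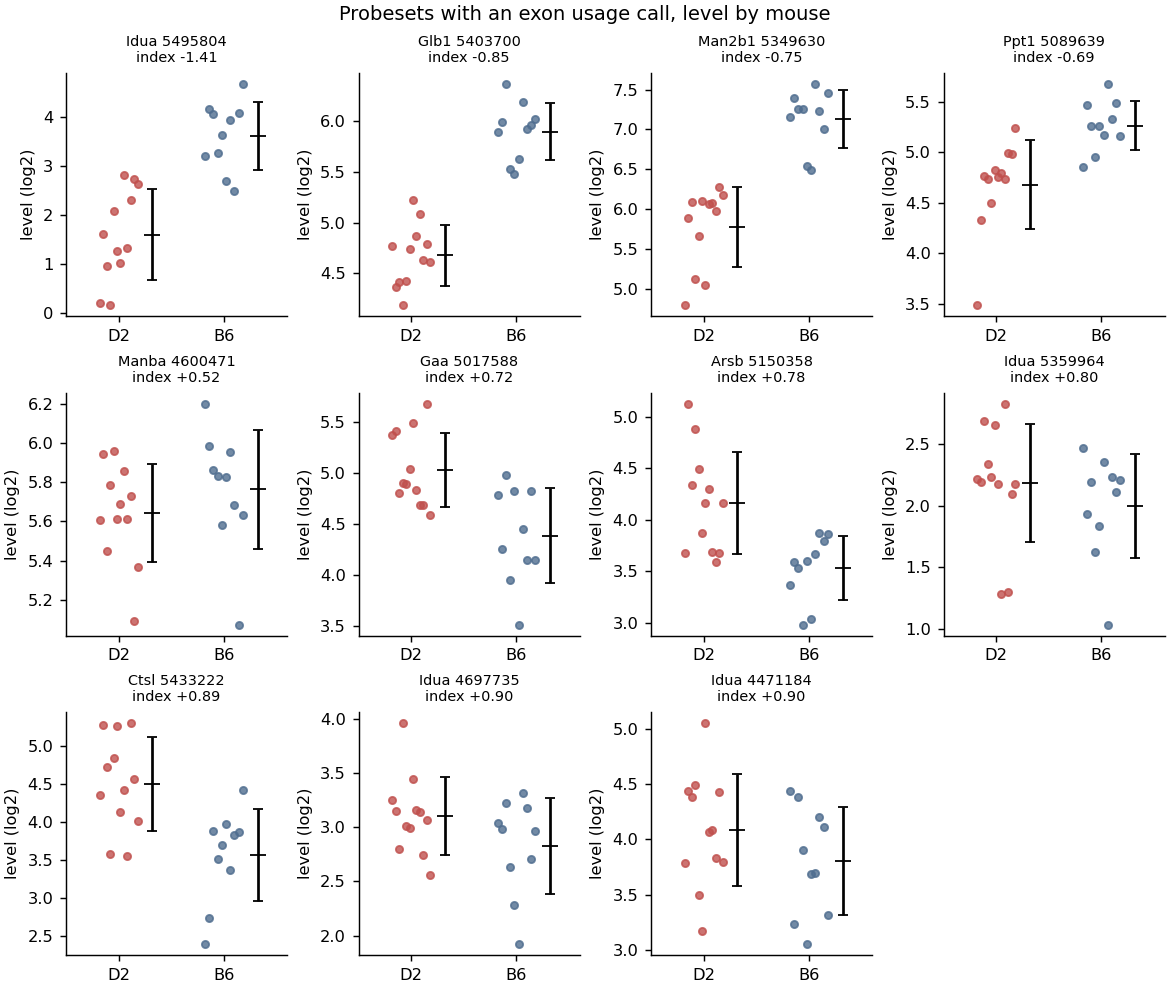
Level (log2) of the 11 member probesets with an exon usage call, one point per mouse with the mean and SD beside the points, for 12 D2 and 10 B6 mice, ordered by index difference. The probesets of Glb1 and Man2b1, picked by their strain call, show no overlap between strains, and no background share was counted. Of the others, 3 of Idua and 1 of Manba overlap widely in level.

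Many lysosomal genes are known targets of the transcription factor TFEB, which binds an E-box in their promoters, the CLEAR element. RefSeq promoter windows (GRCm38.p6; 250 bases before to 50 after a transcript start) were available for 31 members. The E-box letters CACGTG, which read the same on both strands, were found for 12 of them (38.7%), against 8.09% of the 27025 genes with a window. The longer TCACGTGA, which holds those letters and is also its own reverse complement, was found for Cln3, Ctsa, Ctsd and Mcoln1 (12.9% of the 31), against 1.125% of all genes. Of the genes called lower in D2, only Glb1 had CACGTG in its window. The windows of the 2 mannosidase genes, whose probesets lay almost all below 0, are shown beside that of Glb1, which fell and holds the motif, and that of Ctsd, which holds both motifs and was not called. Capitals mark CACGTG. The sequences are the reference strain's, and a match describes letters only.
Man2b1 (chr8:85083019-85083318, + strand): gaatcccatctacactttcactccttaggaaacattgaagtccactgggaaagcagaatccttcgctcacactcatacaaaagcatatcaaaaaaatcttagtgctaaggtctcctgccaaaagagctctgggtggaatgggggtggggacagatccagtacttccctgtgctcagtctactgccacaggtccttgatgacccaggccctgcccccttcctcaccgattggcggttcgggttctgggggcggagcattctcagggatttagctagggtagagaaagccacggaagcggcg
Manba (chr3:135485361-135485660, + strand): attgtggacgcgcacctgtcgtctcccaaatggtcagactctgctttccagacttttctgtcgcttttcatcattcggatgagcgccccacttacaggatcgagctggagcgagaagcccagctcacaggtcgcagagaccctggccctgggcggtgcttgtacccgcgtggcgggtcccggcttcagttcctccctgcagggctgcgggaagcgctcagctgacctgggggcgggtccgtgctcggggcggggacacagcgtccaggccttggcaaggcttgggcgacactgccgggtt
Glb1 (chr9:114400828-114401127, + strand): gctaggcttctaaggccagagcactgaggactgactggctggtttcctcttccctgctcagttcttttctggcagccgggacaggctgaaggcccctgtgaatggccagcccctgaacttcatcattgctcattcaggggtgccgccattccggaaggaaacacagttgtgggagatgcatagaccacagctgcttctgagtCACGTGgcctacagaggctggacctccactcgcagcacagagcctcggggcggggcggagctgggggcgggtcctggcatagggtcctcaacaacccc
Ctsd (chr7:142387778-142388077, - strand): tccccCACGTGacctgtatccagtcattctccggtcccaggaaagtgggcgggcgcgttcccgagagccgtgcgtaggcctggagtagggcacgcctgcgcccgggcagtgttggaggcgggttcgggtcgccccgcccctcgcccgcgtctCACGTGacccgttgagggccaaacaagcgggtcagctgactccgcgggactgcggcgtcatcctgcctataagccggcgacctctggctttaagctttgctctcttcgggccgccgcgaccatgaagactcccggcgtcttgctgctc
Man2b1 and Manba therefore had no CACGTG in these 300 bases, while Glb1 had 1 and Ctsd had 2, of which 1 lies in the longer motif.

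Other parts of the lysosomal system were read from 5 further lists with 84 measured genes. Of these, 1 rose and 6 fell in D2, against 10.8% of all genes called. After centring 6 rose and 5 fell, against 11.1% of all genes called. The median difference of the 84 genes was -0.083, against -0.053 over all genes tested. Gnptab encodes the enzyme subunits that start the mannose 6-phosphate tag, and was the called one of 10 genes for modification and sorting. It averaged 5.68 in D2 and 6.20 in B6, a difference of -0.52 ± 0.084 (SE; limma adjusted p = 9.7e-05), while the mannose 6-phosphate receptor gene Igf2r differed by -0.049 and was not called.

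Of 23 other membrane proteins, 4 fell and 1 rose. The cation channel gene Tpcn2 fell by 0.62, the macrophage marker Cd68 by 0.49, and Mfsd8, mutated in a late infantile ceroid lipofuscinosis, by 0.39. Laptm4b fell by 0.33, while the sialic acid exporter gene Slc17a5 rose by 0.32 (limma adjusted p = 0.0299). Of 21 other hydrolases and related soluble or membrane proteins only Gpnmb was called (-1.02), a membrane glycoprotein with a known nonsense allele in D2. None of 18 genes of the V-ATPase, the pump that acidifies lysosomes, was called (limma; 3 had an unadjusted p under 0.05), with a median of -0.11. None of 12 genes of the TFEB family and of lysosomal mTORC1 signalling was called (limma; 0 with an unadjusted p under 0.05), and Tfeb itself differed by -0.053.

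**Figure D5:**
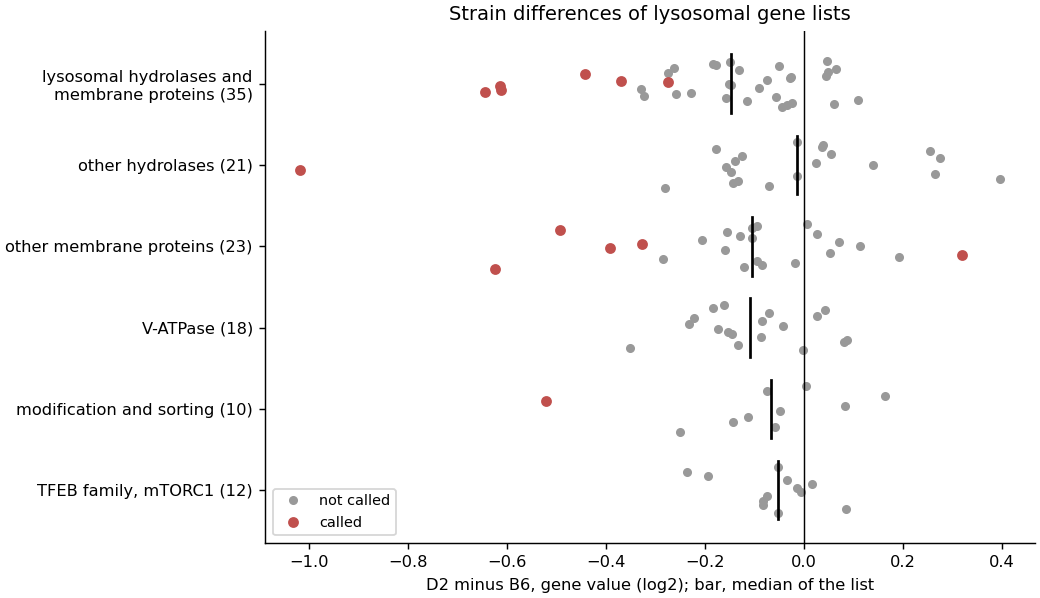
Difference D2 minus B6 of the gene value (log2) for the 35 members and for 5 lists of other lysosomal genes, one point per gene, with the list's median as a bar and the number of measured genes in brackets. Called genes are red, and Gpnmb lies farthest left at -1.02.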

How the data were processed

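The deposited values are log2 probeset signals that the authors made with RMA (affy 1.12.2 in R 2.6.0, per the submitters' processing notes). Its options, the probeset definition and the genome build are not given in the sources used here. Per the labels' protocols, 24 arrays were hybridised and 2 were left out by the authors because of another scanner, which leaves 22 (12 D2, 10 B6). Array number limits the precision.

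Of 1201338 probesets, 1190406 held values and 311384 carried 1 gene symbol. Old symbols were updated through a RefSeq gene table (GRCm38.p6). A gene needed 3 kept probesets, and no pseudocount was added. D2 minus B6 was tested over all 16016 genes with limma 3.58.1 (lmFit, eBayes; R 4.3.3) and Benjamini-Hochberg adjustment, after the procedure was tested on simulated data. Alternatives were centring, the array median as covariate, the mean of probesets, other filters, the array letter, other eBayes settings, and leaving out arrays. Leaving out each single array was added after the data were seen. The members and gene lists were chosen with earlier results of these data known. All members are named. By rule, fuller values were given for called members, for those with the largest probeset or exon usage calls, and for the ends of the range of differences and levels, and up to 3 called genes were named of each other lysosomal list. Slc17a5, Laptm4b, Igf2r, Tfeb, the glycosidase and sulfatase genes outside the members and the marker genes were chosen after their values were seen.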

Additional observations from a re-analysis of the deposited data

Results flagged for a closer look

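Hexa, the beta-hexosaminidase alpha subunit gene, had 1 B6 mouse apart from the other 9: replicate 11 had a gene value of 5.84, and the next lowest B6 mouse had 6.14. The gap was 0.488 of the group's range, above Dixon's 95% critical value for 10 samples. Of 46 sets of B6 values tested this way, 1 was picked out, and chance picks out about 1 in 20.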

How the results depend on the processing

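No paired analysis was possible, since each array held RNA of a separate mouse and the labels give no pairing between strains. The array median of all probesets, used as covariate, was mostly higher in D2, with overlapping ranges (1.45 to 1.51 in D2, 1.41 to 1.47 in B6). With it the called genes numbered 2 members (Idua and Man2b1), 495 of all genes and 2 other lysosomal genes. The called member probesets then numbered 20 and the exon usage calls 2, and the median difference of the members reversed to 0.046. On the 2 D2 and 2 B6 letter B arrays alone 0 members, 0 other lysosomal genes, 0 member probesets and 0 exon usage probesets were called (limma; 7, 6, 52 and 29 at an unadjusted p under 0.05), and 75 of all genes. The mean of kept probesets gave 2718 of all genes and 14 other lysosomal genes, and centring gave 11 other lysosomal genes. Exon usage calls numbered 7 without D2 replicates 13, 14 and 19 (4 of the 11), and 1 at an index threshold of 1. The causes were not tested. Leaving out single arrays gave 5 to 7 called members: Ctsk was lost in 13 of 22 cases, and Neu1 was gained without D2 replicate 20 or 23. With the letter as block 8 members were called, Ctsb and Neu1 besides the 6. Of the 29 members not called, 19 changed sign under some alternative, 41 of 319 values in all.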
